A study of Mus musculus with 6 samples.

Results

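The open chromatin described here lies far from genes: regions of the mouse genome that were accessible in sorted cells of the olfactory epithelium and that sit over 100 kb from the start of any protein-coding transcript. They are called distal regions below. Of 163659 open regions on chromosomes 1 to 19, 28682 (17.5%) met that distance, counted against 52065 protein-coding starts of GENCODE M21 on GRCm38. A stretch was called open, without regard to group, where 500 bp tiles reached 5 times the median tile with any signal, as a mean over all 6 libraries. Neighbouring tiles were joined. The median tile was 0.0605 CPM, where CPM for tiles is the cut-site count scaled by the library's total. Levels of regions in a library are scaled by its cut sites in the tested open regions, times its TMM scaling factor. Windows of marker genes are scaled by the library's kept cut sites on chromosomes 1 to 19. CPM values of these different kinds are therefore not comparable with each other. The distance rule used no measured value, but the open rule used the mean level of the same 6 libraries, so a region closed in 1 group could enter through the other group alone.

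The study profiled single nuclei by ATAC-seq, in which the Tn5 transposase cuts accessible DNA and each fragment end marks a cut site. All 6 mice were Krt5CreER; Rosa26LSL-YFP/LSL-YFP, in which tamoxifen-inducible Cre driven by the keratin 5 promoter leaves a YFP label in horizontal basal cells and in any cell derived from them. YFP-positive, propidium iodide-negative cells of the dorsal epithelium were sorted, 1 animal per library. The uninjured control mice were 8, 6 and 6 to 7 weeks old (replicates 1 to 3), and the injured mice, of the same 3 ages, received the olfactotoxic drug methimazole 24 h before collection. The sort keeps labelled cells of every type, so it is a lineage gate and not a cell-type gate.

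Horizontal basal cells are the reserve stem cells of the olfactory epithelium: they lie quiet on the basal lamina, held there by the transcription factor p63 (gene Trp63), and are activated when neurons and supporting cells are lost. Distal open regions include enhancers, which bind transcription factors and can act on a gene across long stretches of DNA, and CTCF sites, where chromatin loops are anchored. AP-1, a dimer of Fos and Jun family proteins, is an early responder to tissue injury and growth factors and binds enhancers in many epithelia.

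The sequences below are shown because the injury comparison turns on them: the 300 bases with the most cut sites in the 3 distal regions that rose most, in the 3 that fell most, and in the gain of smallest p near each of 3 genes of transcription factors active in epithelia (Runx2, Klf4 and Sox9), which were chosen after their values were seen. All are on the plus strand of GRCm38, read from the RefSeq genome. Capitals mark the AP-1 letters TGAGTCA or their reverse complement TGACTCA, found by a script, and each line names the gene whose protein-coding start is nearest, which need not be the gene that the region acts on.
Gxylt1 (rose) chr15:92965641-92965940: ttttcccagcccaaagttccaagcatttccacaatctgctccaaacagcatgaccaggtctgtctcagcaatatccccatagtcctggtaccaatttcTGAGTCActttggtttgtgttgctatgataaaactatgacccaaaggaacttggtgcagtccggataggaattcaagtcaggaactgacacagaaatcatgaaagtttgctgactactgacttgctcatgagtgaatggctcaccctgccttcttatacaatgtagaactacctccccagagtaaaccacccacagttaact
Spry2 (rose) chr14:105662901-105663200: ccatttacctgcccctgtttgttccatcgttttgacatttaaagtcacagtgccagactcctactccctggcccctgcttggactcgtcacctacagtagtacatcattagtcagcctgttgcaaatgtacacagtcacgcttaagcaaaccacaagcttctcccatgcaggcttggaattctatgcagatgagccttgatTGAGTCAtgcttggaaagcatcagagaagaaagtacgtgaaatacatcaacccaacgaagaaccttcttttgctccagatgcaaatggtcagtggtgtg
Rap1b (rose) chr10:117984801-117985100: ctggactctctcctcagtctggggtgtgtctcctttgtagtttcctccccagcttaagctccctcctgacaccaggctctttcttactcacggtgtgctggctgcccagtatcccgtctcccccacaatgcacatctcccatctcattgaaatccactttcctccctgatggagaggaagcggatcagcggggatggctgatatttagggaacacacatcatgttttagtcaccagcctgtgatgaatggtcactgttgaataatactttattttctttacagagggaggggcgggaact
Cog6 (fell) chr3:52905471-52905770: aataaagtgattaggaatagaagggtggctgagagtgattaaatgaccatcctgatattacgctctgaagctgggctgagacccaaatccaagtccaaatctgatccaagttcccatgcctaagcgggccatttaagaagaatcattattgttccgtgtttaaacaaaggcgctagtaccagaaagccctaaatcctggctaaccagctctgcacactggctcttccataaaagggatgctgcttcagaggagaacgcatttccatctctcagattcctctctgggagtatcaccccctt
Rad51b (fell) chr12:79594501-79594800: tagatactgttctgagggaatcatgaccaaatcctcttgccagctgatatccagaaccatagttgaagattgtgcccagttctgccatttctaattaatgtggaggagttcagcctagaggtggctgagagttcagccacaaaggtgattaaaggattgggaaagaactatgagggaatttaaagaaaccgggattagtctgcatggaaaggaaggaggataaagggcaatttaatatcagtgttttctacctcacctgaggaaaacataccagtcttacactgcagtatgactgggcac
Zfp64 (fell) chr2:169176341-169176640: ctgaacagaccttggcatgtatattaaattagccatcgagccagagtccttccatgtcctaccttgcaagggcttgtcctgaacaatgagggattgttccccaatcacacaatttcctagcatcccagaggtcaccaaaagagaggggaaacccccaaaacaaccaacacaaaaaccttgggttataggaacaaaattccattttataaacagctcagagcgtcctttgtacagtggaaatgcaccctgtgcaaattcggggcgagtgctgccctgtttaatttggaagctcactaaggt
Runx2 (rose) chr17:44500381-44500680: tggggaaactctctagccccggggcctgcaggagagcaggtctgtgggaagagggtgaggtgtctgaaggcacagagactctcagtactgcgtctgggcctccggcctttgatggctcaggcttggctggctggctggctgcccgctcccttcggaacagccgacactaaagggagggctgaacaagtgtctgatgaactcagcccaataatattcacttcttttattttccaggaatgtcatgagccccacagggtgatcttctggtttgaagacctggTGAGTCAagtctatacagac
Klf4 (rose) chr4:55732031-55732330: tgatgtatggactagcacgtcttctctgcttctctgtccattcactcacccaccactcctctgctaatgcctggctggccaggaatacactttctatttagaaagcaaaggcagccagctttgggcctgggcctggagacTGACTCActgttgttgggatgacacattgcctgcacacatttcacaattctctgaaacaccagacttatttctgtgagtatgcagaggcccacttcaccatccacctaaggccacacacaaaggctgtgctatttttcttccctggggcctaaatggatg
Sox9 (rose) chr11:112173671-112173970: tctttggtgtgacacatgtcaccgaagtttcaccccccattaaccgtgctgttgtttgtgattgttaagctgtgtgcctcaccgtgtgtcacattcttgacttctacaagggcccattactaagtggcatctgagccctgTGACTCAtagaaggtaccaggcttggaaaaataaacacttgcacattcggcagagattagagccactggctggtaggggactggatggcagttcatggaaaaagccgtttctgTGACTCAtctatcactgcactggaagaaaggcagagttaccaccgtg

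AP-1 letters stand in 5 of the 6 windows from regions that rose, with 2 copies in the one near Sox9, and in none of the 3 that fell. These few windows stand for no share: of the 10 largest gains 5 carry the letters in their highest tile, and the Klf4 gains on either side of the one shown do not. The Rap1b window rose without them. None of the 9 windows holds the CTCF letters that were searched.

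Distal regions were mostly small and weak. Their median width was 500 bp, 55.8% were a single tile, and the widest spanned 19000 bp. Their median level was 1.11 CPM, against 1.53 CPM over all open regions and 21.1 CPM for the wider regions within 1 kb of a protein-coding start. The highest tile reached a median of 10.1 times the median tile, and 4750 regions (16.6%) lay between 5 and 6 times, near the edge of the rule. Median GC content was 44.4%, against 59.2% within 1 kb of a start.

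The median distance to a protein-coding start was 188 kb, the quartiles were 134 and 300.2 kb, and the farthest region lay 2342 kb away, nearest to the protocadherin gene Pcdh20. By place, 16165 (56.4%) were between annotated genes, 8606 in an intron of a long protein-coding gene, 3408 (11.9%) within a noncoding gene and 503 (1.75%) over an exon of a protein-coding gene. Distal does not mean far from every start: 1353 (4.72%) lay within 1 kb of a start of another gene type, and 5092 (17.8%) lay over 100 kb from all annotated starts. Among chromosomes, distal regions made up from 10.6% of the open regions (chromosome 19) to 25.9% (chromosome 13).

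The distance limit did not mark a break in the data. The 1000 regions just over it (100.004 to 103.984 kb) had a median level of 1.21 CPM, and 84 were called higher and 15 lower after injury. The 1000 just under it (96.412 to 99.998 kb) had 1.37 CPM, with 74 called higher and 20 lower.

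The libraries held 8100227 to 23937953 fragments, and the 454, 889 and 629 uninjured and 1338, 420 and 746 injured barcodes with 2000 or more fragments were kept. These gave 862974 to 2574434 cut sites in distal regions per library. Uninjured 3 and injured 3 shared 34 barcode sequences, against 0 to 4 for the other pairs of libraries. Leaving out every barcode found in 2 libraries gave 1970 distal regions called higher and 543 lower, against 1962 and 523 with them. Gene windows of the 11 horizontal basal markers summed to 922 to 1072 CPM in uninjured and 780 to 946 CPM in injured libraries. None was at 0, but 5 of the 11 were lower without overlap of the groups and 1 was higher. Icam1 went from 92.8 to 135 CPM to 45.3 to 53.8 CPM. Cav1 rose from 29.1 to 33.4 CPM to 36.3 to 44.0 CPM, and Trp63 overlapped at 143 to 151 and 132 to 153 CPM. Other types were present as well. Clusters named from markers of olfactory sensory neurons, immature neurons or sustentacular cells held 593 barcodes, from 36 in injured 2 to 204 in injured 3, and the markers of sustentacular cells summed to 279 to 300.3 CPM in uninjured and 207 to 250.4 CPM in injured libraries. Of the 11 sustentacular genes 5 were lower without overlap of the groups and 0 higher. The sums of gland markers (103 to 118 against 82.1 to 86.0 CPM) and immune markers (406 to 468 against 352 to 388 CPM) were also lower, but their members went both ways, with 2 of 8 gland genes lower and 2 higher and 2 of 11 immune genes lower and 4 higher. Of the genes that were lower, Aqp5 of the gland list went from 39.9 to 47.6 CPM to 26.5 to 29.9 CPM. Cx3cr1 of the immune list went from 307 to 341 CPM to 227 to 265 CPM. Of those that were higher, Ltf of the gland list went from 2.34 to 3.97 CPM to 4.47 to 5.83 CPM. Csf1r of the immune list went from 7.84 to 9.51 CPM to 11.2 to 14.6 CPM. The sums of both neuron lists overlapped. Those of stromal and endothelial markers overlapped too, with 1 of 10 genes lower and 3 higher. The part of these markers in the injury comparison was not tested, beyond the counts without the named clusters given with it. The labels call all 6 libraries horizontal basal cells. Doublets were not called. An unnamed cluster of 193 barcodes came almost wholly from uninjured 3 (169).

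Distal accessibility changed in both directions after injury. By edgeR's quasi-likelihood test with Benjamini-Hochberg adjustment over all 154909 open regions tested, 1962 of 26475 tested distal regions (7.41%) were higher 24 h after methimazole and 523 (1.98%) were lower, at an adjusted p under 0.05. The other 2207 distal regions held too few cut sites to be tested. Over all open regions the same test called 6.85% higher and 1.92% lower, so with this scaling the distal shares are near the background and are not in themselves a result about distal regions. The median log2 difference was 2.72 among regions called higher (quartiles 2.01 and 3.53) and -1.57 among those called lower (quartiles -2.002 and -1.197), and 1928 and 448 of them passed a 2-fold change. In simulation the test recovered 3.91% of 2-fold and 28.4% of 4-fold changes, so larger changes were recovered more often. Only 179 and 176 of 146157 simulated regions were changed, a far smaller share than was called here. Recovery after the adjustment depends on that share, so these rates are not the power of this comparison. The median over all tested distal regions was 0.01, and 0.03 over all open regions.

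The division between gains and losses depended on the scaling and on single libraries. Gains made up 79.0% of distal calls with the main scaling (TMM on open regions) and 54.0% with factors from 10 kb bins of the whole genome, which moved the median log2 difference of all open regions to -0.32 and of distal regions to -0.33. With the bins, 1511 distal regions (5.71%) were higher and 1288 (4.86%) lower, against 4.93% and 7.42% of all open regions, and at an unadjusted p under 0.05 losses outnumbered gains, 3571 against 2714. No distal region called with both scalings changed direction. Gains were 92.5% of distal calls without uninjured 1, 92.6% without uninjured 2, 69.0% without uninjured 3 and 67.3% with tiles of 10 times the median. The libraries differed in the share of cut sites that fell in open regions, from 73.3% to 76.8% in uninjured and from 64.6% to 71.6% in injured ones; the part of this in the division was not tested.

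The count of calls depended on single libraries. Injured 3 had the lowest level of the 3 injured libraries in 1820 of the 1962 regions called higher (92.8%), and uninjured 3 was the lowest uninjured library in 399 of the 523 called lower (76.3%). Without injured 3 the calls numbered 3140 higher and 961 lower, without injured 1 566 and 119, without uninjured 1 521 and 42, and without uninjured 2 774 and 62. Without uninjured 3 they were 1773 and 795. Without injured 2, edgeR called 0 distal regions in either direction (3020 higher and 1414 lower at an unadjusted p under 0.05, smallest adjusted p 0.0536), while DESeq2 on the same libraries called 1430 and 468. Of the called regions, all but 1 loss had no overlap between the groups, so leaving out a library could not turn their direction. The 3 uninjured and 3 injured libraries did not overlap in 4466 tested distal regions that were higher (16.9%) and 2655 that were lower (10.0%), against 17% and 11.1% of all open regions tested.

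Injured 3 also held the most barcodes of other cell types and, of its 746 barcodes, only 153 in the clusters 2 and 4 that hold 997 of the 1338 of injured 1. Outside the clusters of other types, 2563 of 19187 tested distal regions (13.4%) were called higher and 883 (4.602%) lower, against 11.4% and 5.81% of all open regions tested on those barcodes. Of the original calls 2379 were called again in the same direction, and none in the opposite one. A sum over barcodes cannot tell fewer open nuclei from less signal in each.

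By distance, the share of gains ranged from 6.99% to 7.61% up to 1 Mb. Between 100 and 200 kb, 1101 of 14465 tested regions (7.61%) were higher and 270 (1.87%) lower. Between 200 and 500 kb the shares were 7.38% and 2.25%, between 500 kb and 1 Mb 6.99% and 1.48%, and over 1 Mb 3.18% and 1.71% of 409 tested regions, the weakest of the 4 classes at a median of 0.676 CPM. Regions within 1 kb of a start showed the opposite balance, with 422 of 17644 higher (2.39%) and 877 lower (4.97%).

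As a share of all cut sites in open regions, distal regions took 7.74%, 7.80% and 7.73% in the uninjured libraries, in order of replicate number, and 8.38%, 8.10% and 8.45% in the injured ones. Every injured library lay above every uninjured one. The means were 7.76% ± 0.038 and 8.31% ± 0.184 (SD, n = 3 each), a difference of 0.553 percentage points (two-sided exact permutation p = 0.1, the smallest that 3 against 3 can give). Regions 10 to 100 kb away took 27.3% ± 0.215 and 30.9% ± 0.878, and those within 1 kb 52.8% ± 0.294 and 47.4% ± 1.196 (SD, n = 3 each, exact permutation p = 0.1 for both). The shares sum to a whole, so these differences are not independent.

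Among regions with a mean of 2 CPM or more, the largest gains started from levels near 0, and such regions passed the open rule and the limit on the mean through the injured libraries. A region 309 kb from the start of Gxylt1, which encodes a xylosyltransferase that modifies Notch receptors, held 1, 0 and 2 cut sites in the uninjured libraries and 295, 73 and 46 in the injured ones. Scaled for depth these were 0.0904, 0 and 0.084 CPM against 9.78, 5.03 and 1.77 CPM. Injured 1 was the highest and injured 3 the lowest of its group. That the groups do not overlap was a condition for the 10 largest changes in each direction, and came with the call for nearly all others, so it supports nothing here. The ratio of the summed cut sites was 113, with a 95% counting interval of 38.3 to 548 that covers counting error only. The fitted log2 difference was 6.57 ± 0.91 (SE, edgeR adjusted p = 0.0054) and depends on the prior count at such low levels.

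Spry2 encodes Sprouty2, a feedback inhibitor of receptor tyrosine kinase signalling. A region 233 kb from its start held 0, 0.0878 and 0.168 CPM in uninjured and 10.7, 10.7 and 3.46 CPM in injured libraries. The log2 difference was 6.28 ± 0.70 (SE, edgeR adjusted p = 0.00476). Nrp1 encodes neuropilin-1, a co-receptor for class 3 semaphorins and VEGF. Its region, 194 kb away, went from 0, 0.263 and 0.084 CPM to 13.7, 11.4 and 4.43 CPM (log2 difference 6.13 ± 0.70). A region 138 kb from Rap1b, which encodes a small GTPase of cell adhesion, went from 0, 0.176 and 0 CPM to 7.59, 6.68 and 1.35 CPM (log2 difference 6.14 ± 1.00). In all of these injured 3 was the lowest injured library.

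The other 6 of the 10 largest gains were nearest to Gap43 (a protein of neuronal growth cones), Wdr7, Spdye4c, Car10, Insig2 (which holds back sterol regulatory factors in the endoplasmic reticulum) and Glis1 (a zinc finger transcription factor), with log2 differences from 5.69 to 5.85. AP-1 letters were in the highest tile of 5 of the 10 (those near Gxylt1, Spry2, Nrp1, Insig2 and Glis1), against 63.9% of all distal gains. All 10 of these largest gains were highest in cluster 2 or cluster 4. Gene windows of these clusters are led by those of the injury keratins Krt16 and Krt6a. Together they held 7 uninjured and 1400 injured barcodes, so a gain after injury tends to be highest there. The Gxylt1 region had 9.25 and 12.05 CPM in clusters 2 and 4 and 0 in cluster 1, the main uninjured cluster. Most gains started from more uninjured cut sites than the Gxylt1 region. The summed uninjured count had a median of 35 cut sites over the 1962 regions called higher, 87 had 3 or fewer and 11 had 0 in all 3 libraries.

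Losses started from moderate levels and left a remainder. The largest, 111 kb from Cog6, whose product belongs to a Golgi tethering complex, held 8.14, 6.14 and 3.19 CPM (90, 140 and 76 cut sites) in uninjured and 0.332, 0.757 and 0.693 CPM (10, 11 and 18) in injured libraries. That the groups do not overlap was a condition for naming this region. The log2 difference was -3.31 ± 0.50 (SE, edgeR adjusted p = 0.00651).

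Within an intron of Rad51b, a gene of homologous recombination, a region 296 kb from its start went from 5.79, 7.63 and 2.27 CPM to 0.597, 0.275 and 0.77 CPM. Its log2 difference was -3.19 ± 0.55 (edgeR adjusted p = 0.0101). A region 220 kb from Zfp64, which encodes a zinc finger protein, held 5.43, 4.12 and 1.3 CPM and then 0.497, 0.0688 and 0.654 CPM. Uninjured 3 was the lowest of its group in all 3 of these. The region nearest to Alppl2, an alkaline phosphatase gene, was more even, at 5.79, 6.41 and 5.88 CPM against 0.829, 0.757 and 1.04 CPM (log2 difference -2.77 ± 0.33, edgeR adjusted p = 0.00483). The other 6 of the 10 largest losses, nearest to Spock1, Shisa2, Kif2b, Zranb2, Tenm3 and Vps13b, had log2 differences from -3.01 to -2.87. Of all distal losses 4.97% had AP-1 letters in the highest tile, and none of these 10 did. These losses were highest in cluster 1 or in cluster 10, the sustentacular-like cells that were nearly absent after injury (122 barcodes in uninjured and 2 in injured libraries), except the Zfp64 region, highest in cluster 11. Outside the clusters of other cell types the Cog6 and Alppl2 differences were -3.24 and -2.60.

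**Figure D1:**
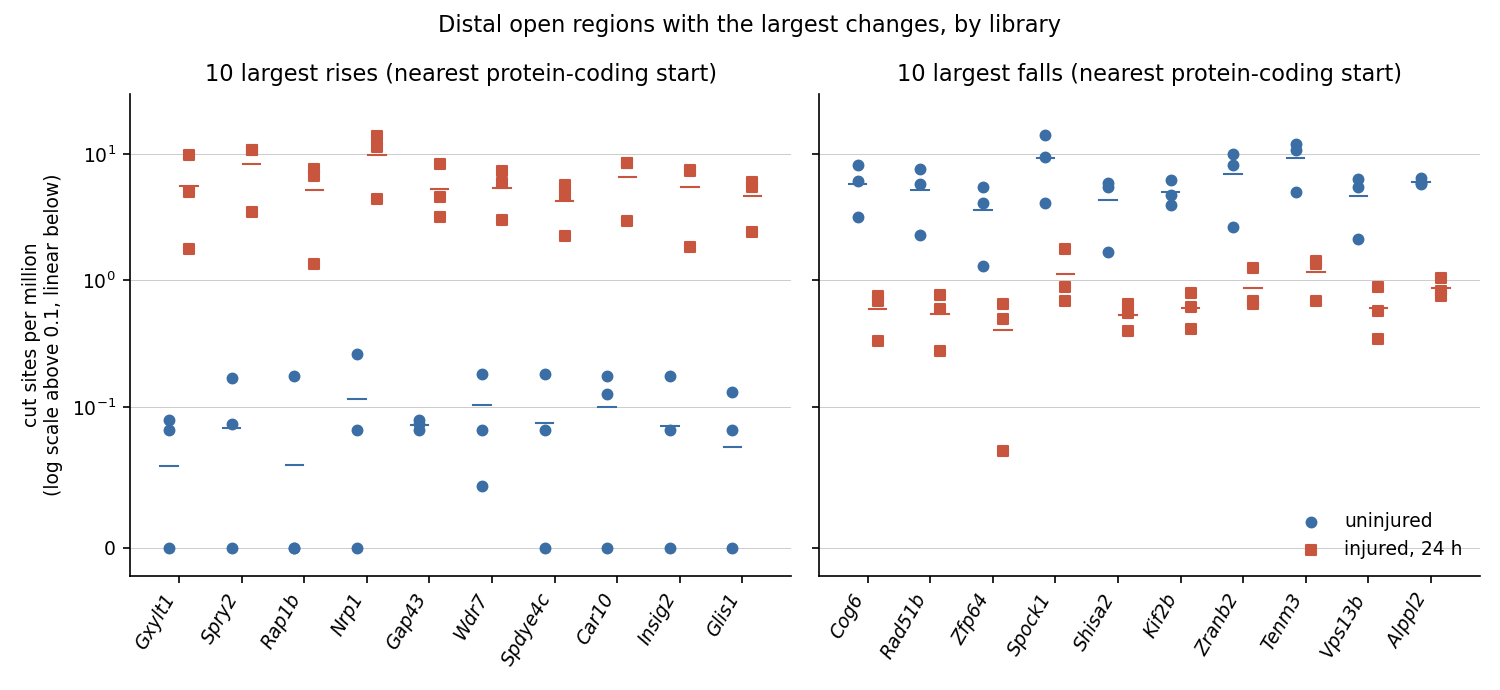
Level in CPM (log scale above 0.1, linear below) in each of the 3 uninjured (circles) and 3 injured (squares) libraries, for the 10 distal regions that rose most and the 10 that fell most, named by the nearest protein-coding start. Uninjured levels of the rising regions lie between 0 and 0.263 CPM, while the falling regions keep between 0.0688 and 1.77 CPM after injury.

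Among the letter patterns searched, AP-1 separated gains from losses most. It was in the highest tile of 1254 of 1962 distal regions called higher (63.9%) and 26 of 523 called lower (4.97%), and of 19.5% of the uncalled ones. Over all 28682 distal regions the share was 22.1%, against 19.9% of the other open regions and 9.54% of regions within 1 kb of a start. It was 7.70% of genome tiles, here and below an evenly spaced sample of tiles without unknown bases. Open regions under 100 kb showed a like pattern, with 61.3% of those called higher and 4.16% of those called lower, so AP-1 letters in gains were not peculiar to the distal ones.

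The share called higher climbed with the number of copies. Of 20515 tested distal regions with no copy, 3.45% were higher and 2.42% lower, with a median log2 difference of -0.13. With 1 copy, 896 of 5105 (17.6%) were higher and 26 lower, and the median was 0.69. With 2 copies, 304 of 760 were higher and 0 lower, with a median of 1.63, and with 3 or more copies 54 of 95 (56.8%) and 0, with a median of 2.33. In the classes of 2 and of 3 or more copies, 1 region each was lower at an unadjusted p under 0.05 by edgeR, and DESeq2 called 366 and 66 higher and 0 lower. Median levels also climbed, from 1.21 CPM with no copy to 1.35, 1.65 and 2.08 CPM, and the part of level in the pattern was not tested. The copy classes were set after the data were seen.

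The 16 other patterns were searched on both strands, each counted separately, so that matches may overlap. They were CTCF (CCANNAGNNGGC), RUNX (TGTGGTT), TEAD (ACATTCC), KLF (CCACACCC), SOX (ACAATGG), GRHL (AACCNGTT), EBF (CCCNNGGGA), the LHX homeobox pattern (CTAATTA), CEBP (TTGCNNAA), FOX (TGTTTAC), STAT (TTCCNGGAA), NF-kB (GGGANTTTC), ETS (CCGGAAGT), NFI (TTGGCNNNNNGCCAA), the p53 family (CATGNNNNNNCATG) and the NEUROD E-box (CAGATGG). RUNX letters were in 16.2% of distal gains, 10.9% of losses and 12.5% of uncalled regions, and KLF letters in 6.52%, 3.44% and 3.70%. RUNX letters occur in 11.4% of the sampled genome tiles and KLF letters in 3.04%. EBF, LHX and CTCF letters were less frequent among called regions, at 6.01%, 4.94% and 2.19% of gains and 7.07%, 4.78% and 1.34% of losses, against 10.4%, 8.47% and 5.52% of uncalled regions. Their shares of genome tiles were 4.602%, 6.24% and 2.66%. GRHL letters were in 4.43% of gains and 7.65% of losses (genome tiles 3.61%). A match is a string of letters and not a bound site, and factors of a family share their letters.

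**Figure D2:**
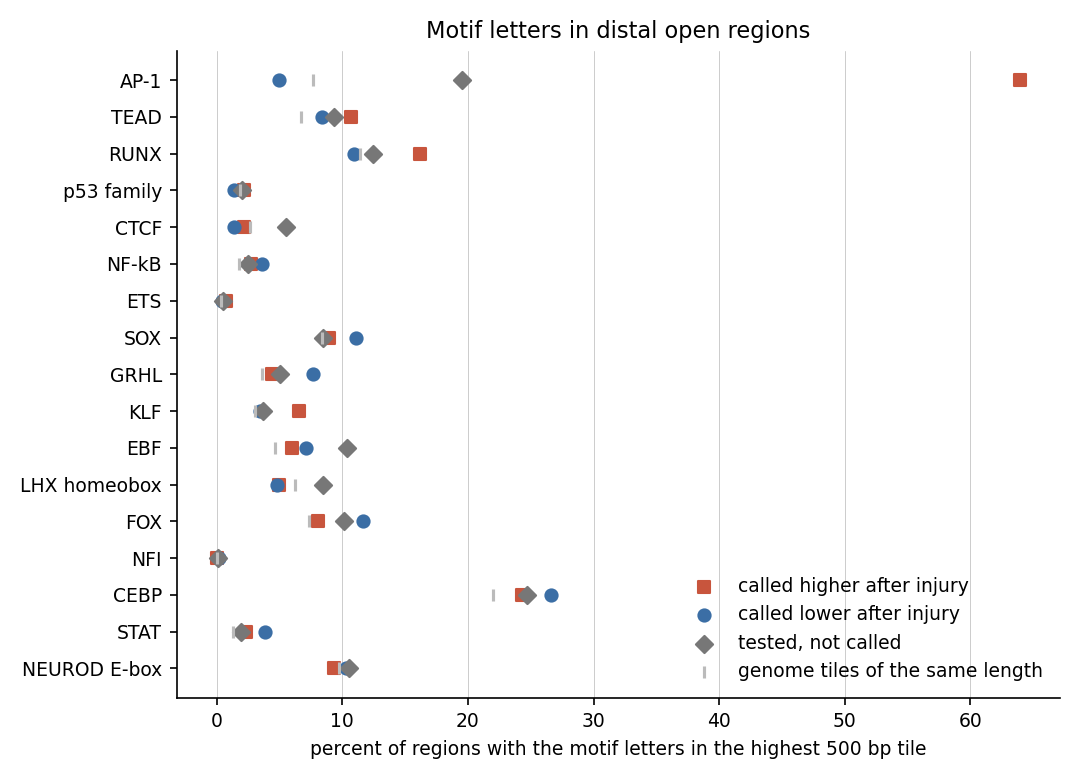
Percent of distal regions whose highest 500 bp tile holds the letters of each of 17 patterns, for regions called higher, called lower, and tested but not called. AP-1 stands apart, at 63.9% of regions called higher and 4.97% of those called lower.

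Counted by signal, distal regions with AP-1 letters took 19.1%, 20.05% and 20.4% of distal cut sites before injury (replicates 1 to 3) and 35.4%, 33.4% and 24.9% after it. The groups did not overlap, and injured 3 was nearest to the uninjured range. The means were 19.8% ± 0.66 and 31.2% ± 5.53 (SD, n = 3 each), 11.4 points apart (two-sided exact permutation p = 0.1, the smallest possible). Regions and their highest tiles were chosen on the mean level of these same libraries. A region that entered through 1 group alone adds cut sites almost only to that group's share. The part of this choice in the difference, and in the other shares of cut sites, was not tested. Outside the clusters of other cell types the shares were 20.6%, 21.9% and 22.6% against 36.3%, 34.6% and 29.9%, so injured 3 lay closer to its group there. Inside those clusters they were 13.3%, 14.2% and 12.9% against 20.02%, 17.1% and 14.3%. CTCF letters showed a smaller difference. Their regions took 5.32%, 5.30% and 5.58% of distal cut sites in uninjured and 5.04%, 5.01% and 5.31% in injured libraries. These groups overlapped, with means of 5.40% and 5.12%, a difference of -0.283 points (exact permutation p = 0.2). Without the region over ribosomal RNA sequence at chr17:39842501-39849000, they did not overlap, and the difference was -0.429 points (exact permutation p = 0.1), against 11.4 points for AP-1 with and without it. CTCF groups were likewise apart over 50 kb (-0.445 points), over 100 kb from all annotated starts (-0.359) and without barcodes found in 2 libraries (-0.286). For 3 rarer patterns the groups did not overlap either: ETS regions took 0.457% ± 0.0231 and 0.557% ± 0.0404, KLF regions 3.78% ± 0.321 and 4.44% ± 0.213, and STAT regions 2.34% ± 0.0255 and 2.12% ± 0.0305 (SD, n = 3 each, exact permutation p = 0.1 for each).

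**Figure D3:**
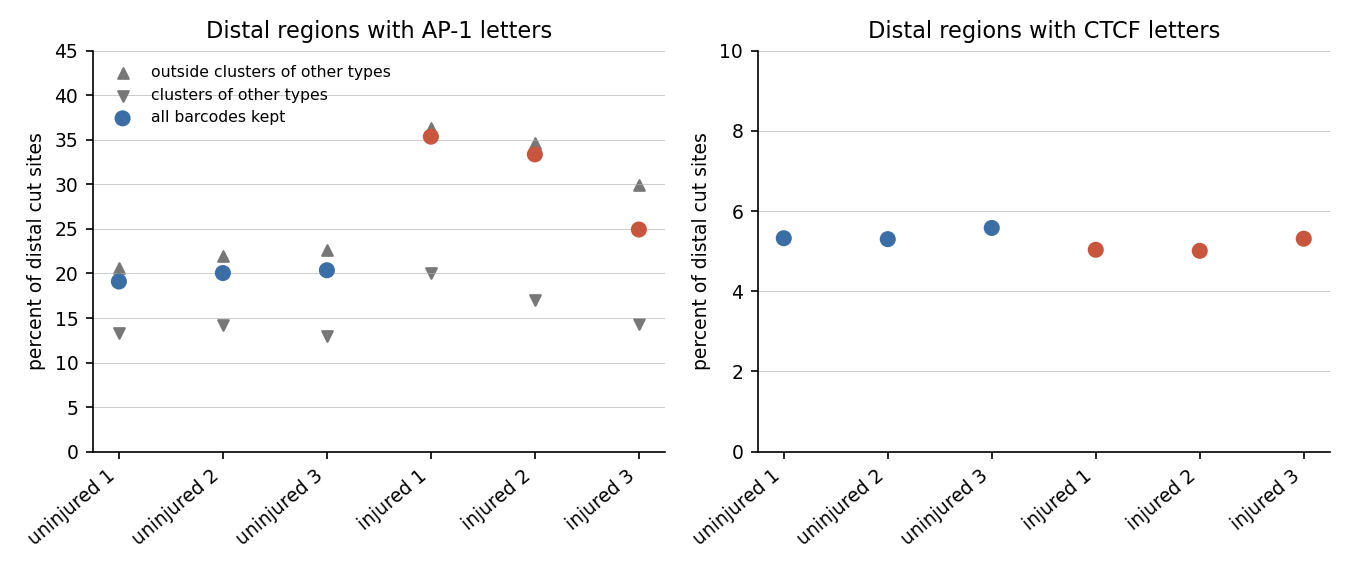
Percent of distal cut sites that fell in distal regions with AP-1 letters (left) or CTCF letters (right), 1 point per library for all kept barcodes, with grey triangles for barcodes outside and inside clusters of other cell types. AP-1 shares are 19.1% to 20.4% in uninjured and 24.9% to 35.4% in injured libraries, while CTCF shares stay between 5.01% and 5.58%.

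The groups differed more near the letters than far from them, but the choice of match bears on this. In each region the match nearest to the centre of the highest tile was used. That tile was chosen on the mean level of these same libraries, so near distances lie closer to the chosen signal than far ones. The part of this choice in the pattern was not tested. In the 6331 distal regions with AP-1 letters, cut sites 20 to 100 bp from the middle of the match reached 3.96, 4.12 and 3.83 CPM per kb in uninjured libraries and 10.3, 8.45 and 6.10 in injured ones. At 400 to 500 bp the levels were 0.906, 0.979 and 0.993 against 1.47, 1.57 and 1.15. The groups did not overlap at either distance, and the ratio of near to far was 4.15 ± 0.259 in uninjured and 5.91 ± 0.973 in injured libraries (SD, n = 3 each). Right at the letters, within 10 bp, the level relative to the shoulder was 0.920, 0.883 and 0.994 in uninjured and 0.761, 0.795 and 0.934 in injured libraries, and these overlap. Around the CTCF letters of 1419 distal regions the dip was deeper, at 0.283 to 0.308 of the shoulder in uninjured and 0.290 to 0.386 in injured libraries. The CTCF shoulder was 7.40, 7.11 and 7.47 against 7.17, 6.42 and 7.64, without separation of the groups. The cutting preference of Tn5 for certain letters was not corrected, so a dip is not a measure of binding, and 913 AP-1 regions hold more than 1 match.

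**Figure D4:**
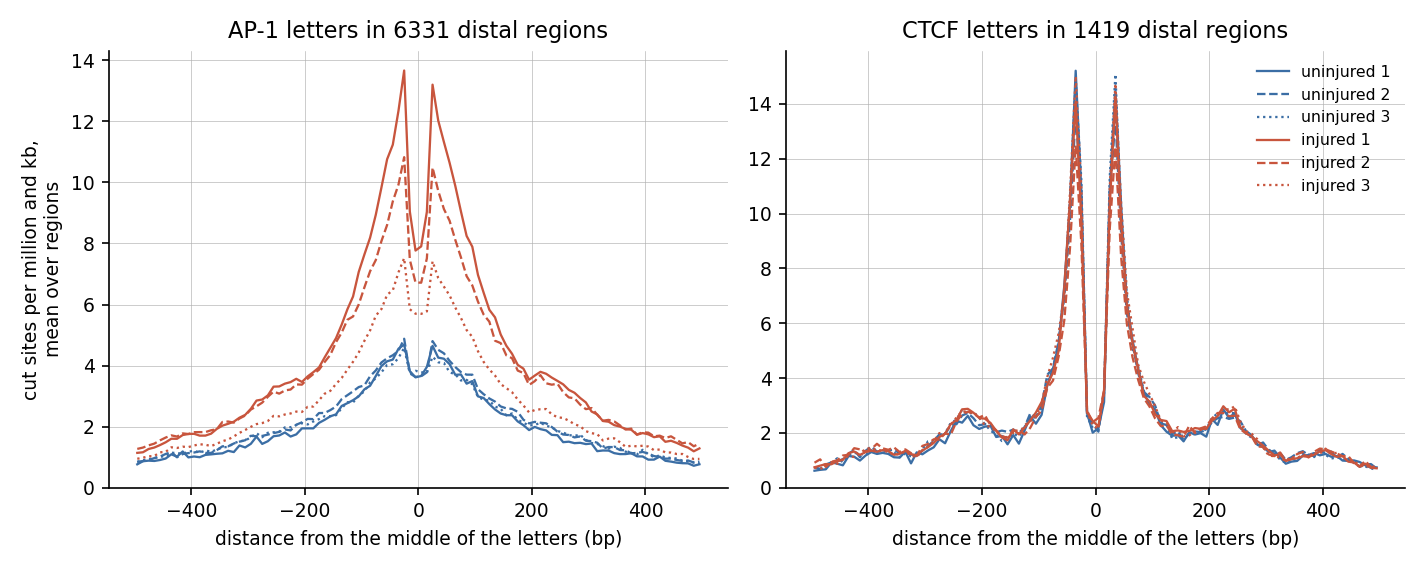
Mean CPM per kb against distance in bp from the middle of the AP-1 letters (6331 distal regions, left) or the CTCF letters (1419, right), 1 line per library. Injured libraries lie above uninjured ones on the AP-1 shoulders, while lines overlap at CTCF, where all 6 dip at the centre.

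Many distal regions shared a nearest gene. They had 2838 different nearest genes, and 1035 of these, with 10 or more each, accounted for 75.3% of the regions. Calls fell near 1193 genes, of which 811 had only gains, 187 only losses and 195 both. Each called region was paired with the next called distal region on its chromosome. With a gap of up to 10 kb, 308 of 353 pairs went in the same direction (287 both higher, 21 both lower). Up to 50 kb, 703 of 840 did (87.3% and 83.7%). Such neighbours can be parted by a single tile under the open limit, as at chr4:55730001-55731000 and chr4:55731501-55732500 near Klf4. Over all pairs of called distal regions, near or far and on any chromosome, the share was 66.8%. The genes nearest to most distal regions were Sox9 (109 distal regions), Zfp608 (94), Auts2 (92), Adgrl2 (79), Efna5 (77), Tenm4 (77), Zfhx3 (75) and Myc (74). Their calls ran from 11 higher and 2 lower of 105 tested at Sox9, 9 and 3 of 68 at Myc and 8 and 0 of 77 at Adgrl2 (15 and 4 at an unadjusted p under 0.05, 10 and 0 by DESeq2) to 2 and 6 of 89 at Zfp608. Over all tested distal regions 7.41% were higher and 1.98% lower. A called region near a gene says nothing of that gene's expression, which these data do not measure.

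Of 50 transcription factor genes listed for their roles in epithelium and olfactory neurons, 41 were the nearest start of 1141 distal regions. Of 1072 tested, 109 (10.2%) were higher and 28 (2.61%) lower, with a median log2 difference of 0.08, against 7.41%, 1.98% and 0.01 for all distal regions. Genes with many gains included Sox9 (11), Klf6, Tshz1 and Myc (9 each) and Runx2 and Maf (7 each).

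Runx2, a Runt-family factor best known from bone, had 36 distal regions, 7 of them higher and 0 lower by edgeR. AP-1 letters were in 5 of the 7, against 63.9% of all distal gains. At an unadjusted p under 0.05 the counts were 14 and 1, and DESeq2 called 10 and 0. The intronic region at chr17:44500001-44501500 held 1.09, 1.32 and 0.588 CPM in uninjured and 27.2, 19.1 and 9.62 CPM in injured libraries (log2 difference 4.23 ± 0.46, edgeR adjusted p = 0.00474). A second intronic region at chr17:44554501-44556000 went from 0.181, 0.176 and 0.42 CPM to 17.7, 14.9 and 4.81 CPM. The log2 differences of the 7 gains ran from 1.45 to 5.49.

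Klf4 and Klf6 encode Krüppel-like zinc finger factors, Klf4 one of barrier epithelia. All 34 distal regions nearest to Klf4 were upstream of its start. Gains were 6 of them, 198 to 532 kb away, and edgeR called none lower (13 higher and 3 lower at an unadjusted p under 0.05, 9 and 1 by DESeq2). Its 3 neighbours between chr4:55730001 and 55735000 all rose. The middle one went from 1.18, 1.23 and 1.64 CPM to 12.5, 12.6 and 5.58 CPM (log2 difference 2.90 ± 0.39, edgeR adjusted p = 0.00526). Klf6 had 9 gains and 1 loss, and 8 of the gains carried AP-1 letters, against 63.9% of all distal gains.

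Myc, the growth-promoting transcription factor, had 9 gains and 3 losses, 8 gains with AP-1 letters and no loss with them. Over all distal regions 63.9% of gains and 4.97% of losses carried these letters. Sox9, a factor of glands and stem cells in many epithelia, showed gains and losses side by side. A region 608 kb from its start went from 0.452, 1.1 and 0.462 CPM to 11.6, 8.74 and 6.7 CPM (log2 difference 3.70 ± 0.44). Another, 349 kb from it, fell from 32.6, 30.2 and 30.7 CPM to 17, 17.1 and 17.9 CPM, a small but even change (log2 difference -0.85 ± 0.13, edgeR adjusted p = 0.00646).

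Trp63, whose product maintains the resting basal state, had 14 distal regions, of which 4 rose and 1 fell. None of the 5 had AP-1 letters, against 63.9% of all distal gains and 4.97% of losses. A region 198 kb from its start went from 0.633, 1.1 and 3.4 CPM to 23.6, 20.7 and 7.89 CPM, and one at 153 kb fell from 21.9, 16.6 and 11.5 CPM to 5.04, 5.44 and 7.05 CPM (log2 differences 3.28 ± 0.59 and -1.51 ± 0.28). Sox6, a SoxD factor, had the opposite balance, with 0 gains and 4 losses (3 and 4 at an unadjusted p under 0.05, 1 and 4 by DESeq2). The strongest of these went from 4.25, 3.03 and 2.94 CPM to 0.497, 0.62 and 0.731 CPM (log2 difference -2.45 ± 0.42). Sox2, a factor of neural and basal progenitors, had 2 of each.

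Losses were fewer among the listed factors and lay near genes of different kinds. A region near Hes1, the Notch target, fell from 4.7, 6.06 and 2.6 CPM to 1.06, 1.1 and 1.04 CPM (log2 difference -2.05 ± 0.41), and one near the chromatin organiser Satb1 from 19.3, 21.5 and 16.6 CPM to 6.13, 5.99 and 8.2 CPM (-1.50 ± 0.22). Jun, an AP-1 subunit, had 2 gains and 2 losses. Its strongest gain, 151 kb away, went from 0.362, 1.01 and 0.756 CPM to 8.06, 8.4 and 4.5 CPM and itself holds AP-1 letters (log2 difference 3.23 ± 0.44).

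Of 50 genes of signalling, adhesion and matrix, 28 were nearest to 437 distal regions. Of 403 tested, 39 (9.68%) were higher and 5 (1.24%) lower, with a median log2 difference of 0.16, against 7.41%, 1.98% and 0.01 for all distal regions. Among ligands, Inhba, which encodes the activin A subunit, had the most gains of this list, 11 against 1 loss. All were 473 to 755 kb downstream of its start. AP-1 letters were in 7 of the 11 gains, near the 63.9% of all distal gains. The strongest went from 0.904, 0.746 and 0.84 CPM to 18.2, 15.2 and 5.39 CPM (log2 difference 3.97 ± 0.48, edgeR adjusted p = 0.00492).

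Nrg1, which encodes the ErbB ligand neuregulin 1, had 5 gains and 0 losses (8 and 0 at an unadjusted p under 0.05, 6 and 0 by DESeq2). Its region at 341 kb went from 0.543, 0.746 and 0.63 CPM to 14.3, 13 and 4.08 CPM. A region 450 kb from Jag1, which encodes a Notch ligand, went from 0.362, 0.263 and 0.168 CPM to 6.76, 6.47 and 3 CPM, and one 125 kb from the ligand gene Bmp4 from 2.17, 3.03 and 2.86 CPM to 20.4, 19.9 and 10.4 CPM. The log2 differences were 3.99 ± 0.51, 4.40 ± 0.52 and 2.64 ± 0.32.

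Among receptors, Tgfbr2, which encodes the type II TGF-beta receptor, had 5 gains and 1 loss. Fgfr2, which encodes a receptor for epithelial fibroblast growth factors, had 0 gains and 1 loss by edgeR (2 of each at an unadjusted p under 0.05, 1 of each by DESeq2). In that loss 13.4, 13.3 and 14.3 CPM fell to 3.81, 3.92 and 4.16 CPM at 245 kb, with little spread in either group (log2 difference -1.78 ± 0.23, edgeR adjusted p = 0.005). Of matrix and adhesion genes, a region 277 kb from Tnc, which encodes the injury-associated matrix protein tenascin C, went from 0, 0.307 and 0.336 CPM to 19, 13.6 and 5.58 CPM (log2 difference 5.65 ± 0.67). One 112 kb from Itga6, which encodes the integrin subunit that anchors basal cells, went from 1.09, 1.01 and 0.924 CPM to 10.8, 6.68 and 3.27 CPM.

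**Figure D5:**
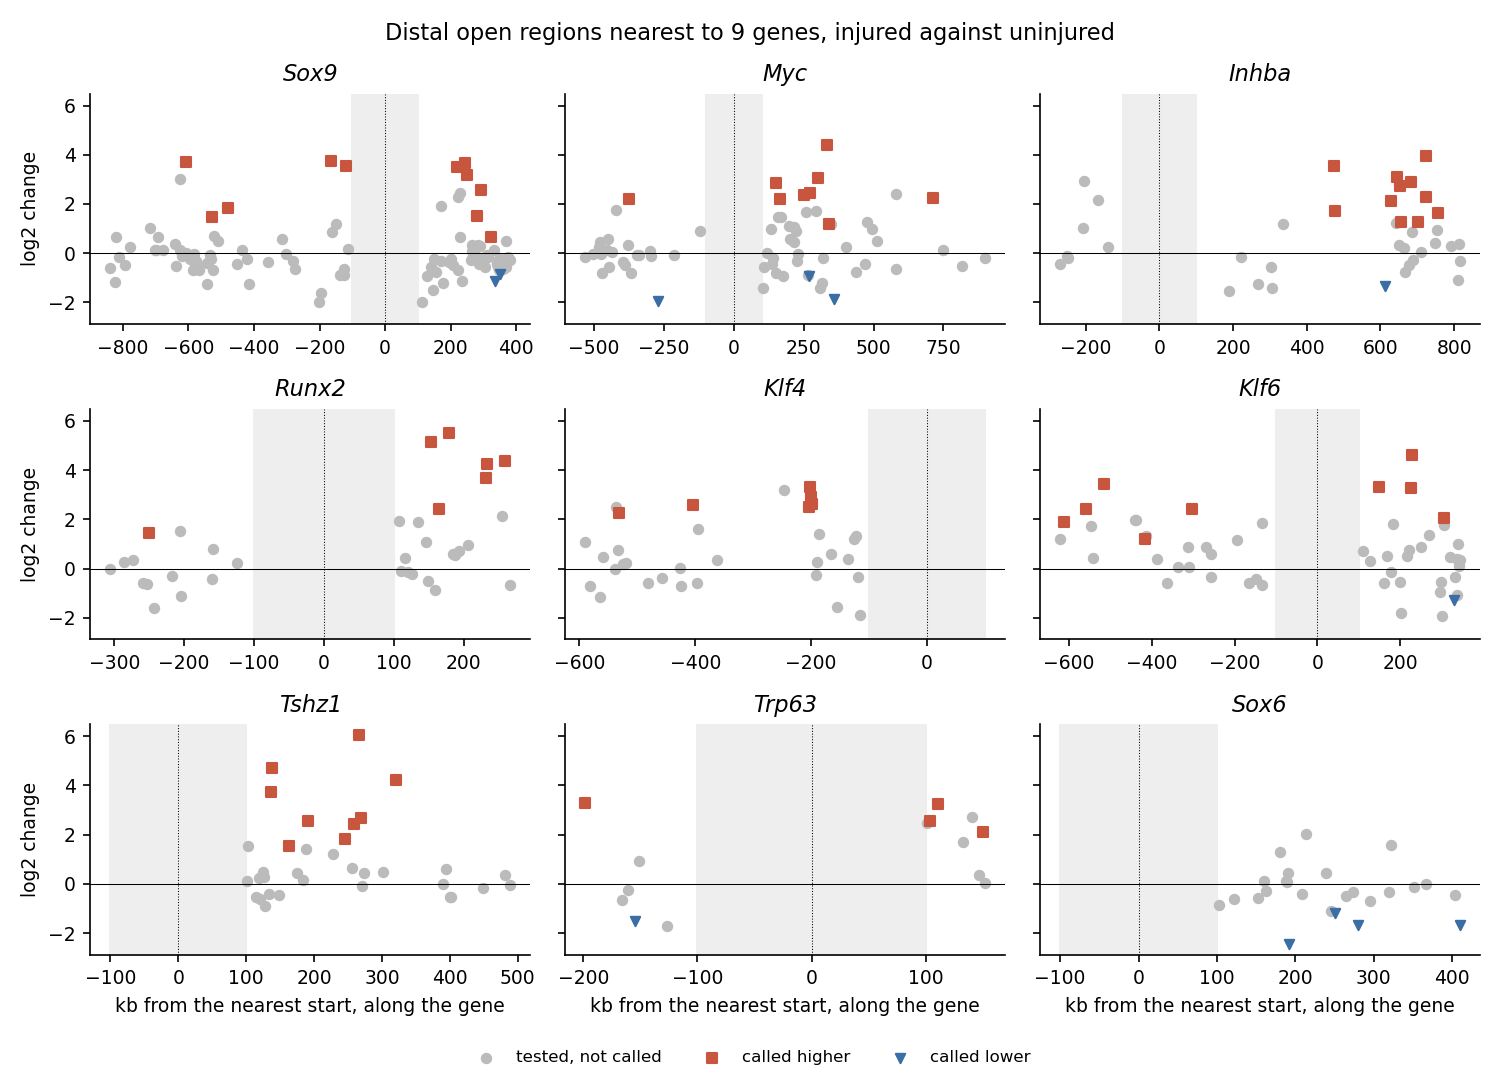
log2 difference (injured against uninjured) of each tested distal region against its distance in kb from the start of 9 genes, negative upstream and positive downstream, with the 100 kb on either side of the start shaded. Gains of Inhba gather 473 to 755 kb downstream and those of Klf4 198 to 532 kb upstream, where all its distal regions lie, while Sox6 shows 4 losses and 0 gains.

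The calls of named regions also depended on single libraries. Of 132 named regions that were called, 0 passed the adjusted threshold without injured 2, 63 without injured 1, 52 without uninjured 1, 63 without uninjured 2, 112 without uninjured 3 and 128 without injured 3. Without the clusters of other cell types 128 were called.

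Calls among the strongest distal regions were losses of less than 2-fold. Of the 8 highest per kb, 3 were called lower, with log2 differences from -0.59 to -0.49, and edgeR called none higher. Of all tested distal regions 1.98% were called lower and 7.41% higher. The highest, at chr17:39842501-39849000, lies over annotated ribosomal RNA sequence, a repeat of many copies. It held 5817, 5406 and 4415 CPM in uninjured and 2920, 3957 and 4225 CPM in injured libraries (log2 difference -0.49 ± 0.13, edgeR adjusted p = 0.0443). Without it the distal share of cut sites was 7.28% and 7.97%. The widest, 106 kb from the Krüppel-like factor gene Klf14, spanned 19000 bp and held 159, 194 and 154 CPM against 177, 178 and 139 CPM (log2 difference -0.03 ± 0.12). The groups overlapped there. Of the 5 regions farthest from any start, at 2215 kb or more, 3 could be tested and 0 were called by edgeR or by DESeq2, nor did any pass an unadjusted p under 0.05.

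Across barcodes, AP-1 regions took the largest share of distal cut sites in clusters 4 (38.6%) and 2 (37.4%), followed by cluster 3 (29.2%), and the smallest in clusters 11 (12.7%) and 9 (12.8%, sensory neuron-like). Clusters 2 and 4 also held the highest level for 44.9% and 39.0% of the regions called higher, against 7.70% and 7.56% of all tested distal regions. Cluster 1 and the sustentacular-like cluster 10 did so for 37.7% and 36.7% of those called lower, against 5.58% and 13.0%. These are descriptions, since the clusters were made from the same cut sites and differ in their libraries. Clusters 2 and 4 together held 7 uninjured and 1400 injured barcodes, and clusters 1 and 12 together 1057 and 23. Cluster 10 held 122 and 2. A region called between the groups thus tends to be highest in a cluster of the group where it is higher. Cluster 11, 122 barcodes that no marker named, had 21.7% of its open cut sites in distal regions, against 7.00% to 9.89% in the others.

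Fragments in distal regions differed little in length from those elsewhere. Fragments under 120 bp, too short to span a nucleosome, made up 45.3% ± 2.13 of those in distal regions and 43.4% ± 2.55 within 1 kb of a start (SD, n = 6). The difference of 1.86 ± 1.27 points was positive in 5 of 6 libraries (two-sided exact paired permutation p = 0.0625). With a limit of 100 bp the difference was 0.869 points, positive in 5 of 6 libraries (exact paired permutation p = 0.09375). With a limit of 150 bp it was 2.63 points and positive in 6 of 6 (exact paired permutation p = 0.03125, the smallest possible). Against regions 10 to 100 kb away it was -0.029 points (exact paired permutation p = 0.875). Injury left the distal share at 45.5% ± 1.78 in uninjured and 45.1% ± 2.83 in injured libraries (SD, n = 3 each, exact permutation p = 0.9), and leaving out uninjured 2 or injured 1 turned its sign.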

How the data were processed

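Nuclei of sorted cells were profiled by 10x Genomics single-cell ATAC-seq in 6 libraries, 3 uninjured and 3 injured. The authors deposited fragment lists, in which each line gives a position, a barcode and the raw count of read pairs behind a fragment, with libraries not pooled. The submitters' processing notes name Cell Ranger 2.0.0 and mm10, and the headers of the deposited count matrices give software version 1.2.0. No fragment passed the end of a GRCm38 chromosome. Which aligner was run is not given in the sources used here. The matrices were not used, since their rows could not be tied to positions here. Fragment starts and ends were taken from the deposited positions, and read-pair counts served only for depth.

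Each fragment gave a cut site at either end, and these were summed per library over barcodes with 2000 or more fragments. Regions with enough cut sites (filterByExpr) were compared with edgeR 4.0.16 (quasi-likelihood, robust, TMM) in R 4.3.3, all 6 libraries, no covariate. The SE given with a log2 difference is its absolute value divided by the square root of the test's F statistic. Single values were compared by two-sided exact permutation tests. The test was tested on simulated data: of regions changed by 1 log2 unit 7 of 179 were called, of those changed by 2 units 50 of 176, and of 145802 unchanged ones 7. Barcodes were clustered (latent semantic indexing with 30 components, leidenalg 0.10.2, resolution 0.5), and clusters were named only from listed markers. Motif letters were sought on both strands in the highest tile. Named are the 10 largest called changes in each direction with a mean of 2 CPM or more and no overlap between groups, the 8 highest per kb, the 5 farthest and 5 widest, the 8 genes nearest to most distal regions, and called regions nearest to genes of 2 lists, up to 3 per gene by smallest p. Some of these are not reported here.

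The members, lists and tests were chosen with earlier results of these data known. Replicates are separate animals per the labels. Same-numbered replicates have the same age, but no label ties a number to a shared litter, batch or day. Correlations of their deviations from the group means, over all tested regions, were 0.00289, 0.206 and 0.217 for replicates 1 to 3. Between unlike numbers they ran from -0.307 (uninjured 2 with injured 3) to 0.202 (uninjured 2 with injured 1). These few values do not settle whether the numbers pair the libraries. Alternatives included DESeq2 1.42.0, other scalings, filters, tile and distance limits, and leaving out libraries or barcodes.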

Additional observations from a re-analysis of the deposited data

How the results depend on the processing

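The number of distal regions called higher and lower was 1962 and 523 in the main analysis. It followed the distance limit, at 3632 and 851 over 50 kb, 861 and 253 over 200 kb, and 313 and 92 when over 100 kb from all annotated starts, as fewer or more regions were then counted. Losses were the more variable count: 1027 with DESeq2, 1288 with scaling from 10 kb bins, 883 without clusters of other cell types and 802 with tiles of 10 times the median, against gains of 2591, 1511, 2563 and 1650. The cause was not tested. With the replicate block the calls were 2140 and 686, and whether the numbers pair the libraries is not settled. Leaving out 1 library gave 0 to 3140 higher and 0 to 961 lower. Of regions called in the main analysis, none was called in the opposite direction under DESeq2, the scalings, filters and barcode choices or the replicate block. Regions from the higher tile limit were not matched to the main ones. The distal share of cut sites differed by 0.481 to 0.657 points, and the AP-1 share by 9.32 to 14.5 points, with 1 library left out. The short-fragment difference between distal regions and those near starts was 0.869 points at 100 bp and 2.63 points at 150 bp, and the injury difference ran from -1.97 to 0.797 points with 1 library left out, 0.602 without uninjured 2 and 0.797 without injured 1. Removing barcodes found in 2 libraries, the ribosomal RNA region, and running DESeq2 without injured 2 were chosen after seeing the data.

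The test missed many real differences in simulation: of regions that differed 2-fold, 3.91% were recovered, and 28.4% of those that differed 4-fold, so an uncalled region is not shown to be unchanged. The simulation changed a far smaller share of regions than was called here, so its rates need not hold for these data.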
